A study of Homo sapiens with 2 samples.

Results

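The regions described here are 749 peaks of RNA associated with eIF4A1 that lie within 1 kb of an annotated transcript start. They were taken from the authors' annotated table as the peaks in its class for promoters of at most 1 kb. They make up 39.0% of the 1919 annotated peaks (exact Clopper-Pearson 95% interval 36.8 to 41.3%). The study used DU145, an established human prostate cancer cell line, and asked which RNAs associate with eIF4A1. Cytoplasmic lysate of cells with no treatment named in the labels was shared between a rabbit antibody to eIF4A1 and a control rabbit IgG, and each immunoprecipitate became 1 library. The peaks are named after the eIF4A1 library. The sources used here do not say which library was their control. With 1 library per antibody there was no replicate, so no value has a replicate error and no p-value was computed. Intervals cover counting error only.

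eIF4A1 is an ATP-dependent DEAD-box helicase. With the cap-binding protein eIF4E and the scaffold eIF4G it forms eIF4F, which opens structure in the leader of an mRNA so that the small ribosomal subunit can load and scan to the start codon. Leaders begin at the transcript start, so RNA near a start is where this helicase is best known to act. A promoter class is a category made for DNA-binding proteins. In an RNA experiment it records only that a stack of RNA reads lies close to the start of some annotated transcript, which may be a short transcript that begins far inside a gene.

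Sequence was available for the 30 members whose summit, the base with most reads, falls in a RefSeq promoter window (GRCh38.p14, 250 bases before to 50 after a gene start). The runs that follow show the DNA at 8 of these summits, which lie near a documented gene start but not always after it. They are all 6 with at least 5 reads, and 2 with 4 reads (USP1 and CAV2). These 2 lie in a window of their own gene and were chosen after their values were seen. Each run reads 5′ to 3′ on the strand of the gene named for the peak, and the capitals mark the summit and the 5 bases on either side. The deposited peaks carry no strand of their own.

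STRAP (chr12:15882512-15882541, plus strand): tggtcgcagACTCCCTGACCcctccctcac
RTN4 (chr2:55049856-55049885, minus strand): ctccggcccgGCCTCCCCCTCctcccccgg
CES2 (chr16:66935459-66935488, plus strand): cgctctcctACCACACCCACctttcccggc
SLC38A2 (chr12:46372548-46372577, minus strand): tttttatgatTTGTATTTGACtgagagaaa
EIF1B (chr3:40309897-40309926, plus strand): ccccgcaggAATTTTATCCCctcaccggcc
RNF10 (chr12:120534703-120534732, plus strand): gccgagaacCGCTGCCGCCGccgacccccg
USP1 (chr1:62437005-62437034, plus strand): gctggcgcgGGCGGAGGCTAaaacacgggg
CAV2 (chr7:116499881-116499910, plus strand): gcggactcgGACCAGGACCGggatccccac

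These 8 runs differ widely in composition. The GC share was 86.7% at RTN4, which encodes the endoplasmic reticulum protein reticulon 4, and 83.3% at RNF10, a ubiquitin ligase gene. It was 23.3% at SLC38A2, which encodes an amino acid transporter. Over the runs at all 30 summits the median was 65.3%. Of the motifs searched, the RNF10 run holds GGCGGCGGC on the opposite strand and the CES2 run holds CTTTCC. The STRAP peak had 10 reads, the RTN4 peak 7 reads, and those of CES2, SLC38A2 and EIF1B had 6 reads each. Of the 30 summits, 13 fall in a window of another gene only. At STRAP, SLC38A2, EIF1B and RNF10 the window belongs to a neighbouring or antisense transcript, while the summit lies 139, 211, 204 and 361 bases inside the named gene. The RTN4, CES2, USP1 and CAV2 summits lie in a window of the named gene. They are at −179, −43, −30 and −151 bases from that window's gene start, where minus means upstream. From the 5' end of the RefSeq gene they are 87961, 1002, 624 and 157 bases in.

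Summits gathered just downstream of the transcript start that the authors' annotation chose. The class is cut on this distance, to a start picked separately for each peak, so closeness to it is no independent result. The median distance was 107 bases downstream (quartiles −14 and 310), and 53.5% of members (401 peaks) lay within 200 bases of that start on either side. There were 152 peaks in the 100 bases from the start onward and 137 in the next 100, against 82 in the 100 bases before it. In all, 537 members (71.7%, interval 68.3 to 74.9%) were at or downstream of the start and 212 (28.3%) upstream. Upstream did not mean outside a gene, since 201 of the 212 upstream summits (94.8%) lay inside a RefSeq gene. At the limit of the class, the members farthest out were at EXTL3 (−985 bases, fold 3.68), MADD (984 bases, 4.83) and PGAP6 (−982 bases, 3.93), where a minus sign means upstream. The nearest peaks outside it were at AKNA (−1008 bases, 3.97), KMT2C (1009 bases, 6.93) and IGF1R (−1017 bases, 2.95).

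**Figure D1:**
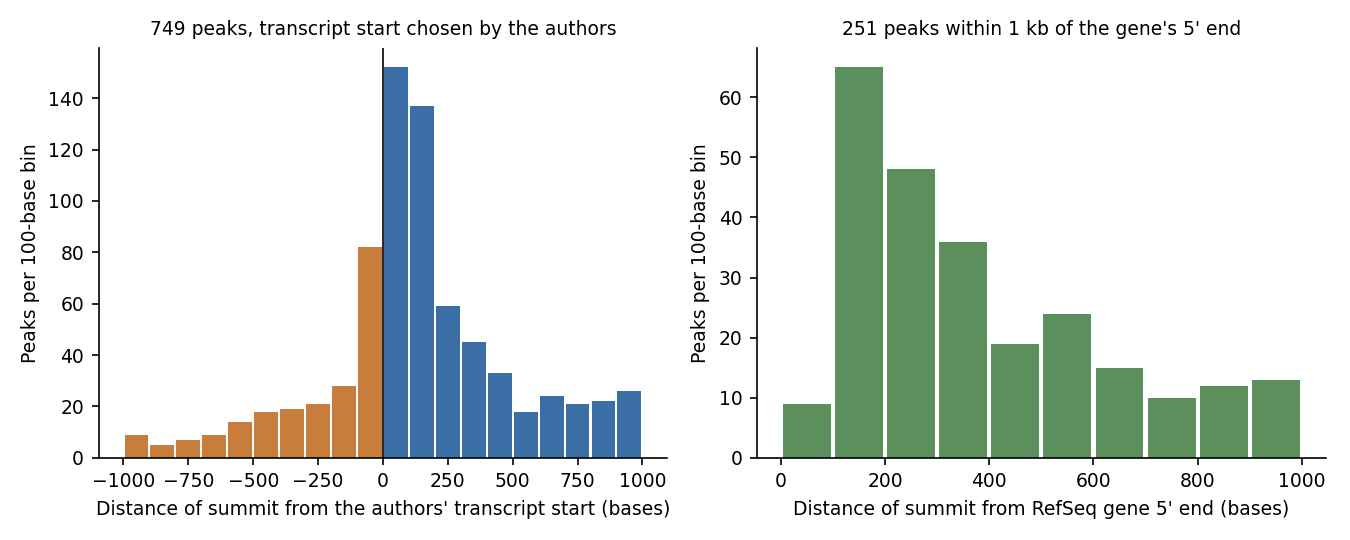
Left, distance in bases of each of 749 summits from the transcript start the authors chose, in 100-base bins, with bins upstream of the start in orange and bins downstream in blue; right, distance from the 5' end of the RefSeq gene for the 251 summits within 1 kb of it. The left plot is highest in the 200 bases after the start, and the right plot holds 9 peaks in its first bin and 65 in the next. The class is cut on the distance shown in the left plot.

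Measured from the 5' end of the whole gene, most members were internal. Of 725 members that lie in a RefSeq gene with a known strand, 251 (34.6%, interval 31.2 to 38.2%) were within 1 kb of the gene's 5' end and 474 (65.4%) were farther in, 285 of them by more than 10 kb. The median distance was 4388 bases. In 58.2% of all members (436 peaks) the chosen transcript began more than 1 kb downstream of the gene's 5' end, and it began within 100 bases of that end in 22.3% (167 peaks). The chosen transcripts were also short, with a median length of 7380 bases against 27600 for the RefSeq genes that hold the summits. The span of a RefSeq gene starts at its most upstream transcript. Measured from any start in the RefSeq promoter table, 39.3% of the 590 members in genes with such a start were within 1 kb (an alternative chosen after the data were seen).

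Within that kilobase the 251 summits were spread unevenly. The gene's first 100 bases held 9 summits, the next 100 held 65, and the counts were 48, 36 and 19 in the 3 bins after those. The median distance was 321 bases (quartiles 185 and 543). The summit closest to a 5' end, 3 bases from it, was at SLC6A12, which encodes a betaine transporter (fold 4.99, 4 reads). With 4 reads or fewer at most of these peaks, a single 100-base bin is a coarse measure.

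Along the gene, the members were most frequent towards the 5' end, and peaks of the 1 to 2 kb, 2 to 3 kb, exon and 3' UTR classes towards the 3' end. The first 25% of the gene held 43.0% of the members and the last 25% held 21.8%. For the 176 placed peaks at 1 to 2 kb from a start these shares were 11.9% and 48.3%, and for the 153 at 2 to 3 kb they were 8.50% and 56.2%. Peaks in the exon class had 10.7% in the first 25% of the gene and 42.0% in the last, and peaks in 3' UTRs had 0.862% and 84.9%. The 73 placed intronic peaks had 31.5% and 23.3%, so they too were more frequent in the first 25% than in the last. Within 1 kb of the gene's 3' end lay 8.41% of the members (interval 6.50 to 10.7%). The share was 27.8% (21.4 to 35.1%) at 1 to 2 kb and 24.2% (17.6 to 31.8%) at 2 to 3 kb. It was 29.3% (23.5 to 35.6%) in 3' UTRs. In the exon class it was 4.35% (2.45 to 7.07%) and in introns 2.74% (0.334 to 9.55%), both below that of the members. The rule selects for closeness to a start, so the high share in the first 25% is no independent result. The peaks are from 1 library, and no test of these differences was made.

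**Figure D2:**
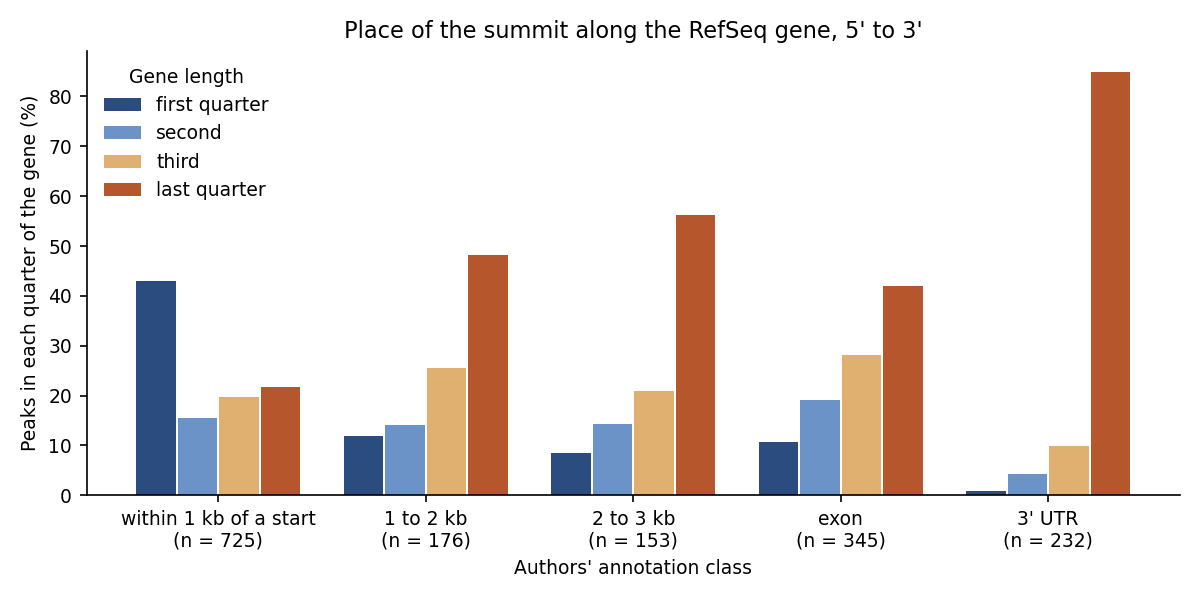
Share in percent of peaks in each successive 25% of the RefSeq gene, from the 5' end (dark blue) to the 3' end (rust), for 5 annotation classes (introns not drawn) with the number of placed peaks under each. The members have their highest bar in the first 25% (43.0%), and the other 4 classes have theirs in the last.

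The median fold of the members was that of the other peaks. The fold is the authors' value for eIF4A1 over control at each peak, on a linear scale, and the number of reads at the summit was recovered from the deposited fold and p-value. The median fold was 3.99 (quartiles 3.93 and 4.95), as it was for the 1170 other peaks (3.99, quartiles 3.80 and 4.96). With so few reads over a background near 0, the fold moves in coarse steps, so equal medians are a coarse comparison. A fold of at least 5 was reached by 169 members, 22.6% (interval 19.6 to 25.7%), beside 22.5% of all annotated peaks. A −log10 q of at least 5 was reached by 29.8% (26.5 to 33.2%) of the members and 24.1% (21.7 to 26.7%) of the other peaks. Support was thin: 121 members rested on 2 reads and 284 on 3, together 54.1%, beside 56.5% of all annotated peaks. At least 5 reads stood at 206 members (27.5%, interval 24.3 to 30.9%) and at least 10 at 39. The share with at least 5 reads was 26.7% (24.8 to 28.8%) over all annotated peaks, near that of the members. It was 22.9% (18.8 to 27.5%) for the exon class and 29.9% (24.2 to 36.1%) for 3' UTRs. The highest and lowest shares were 40.6% (33.6 to 47.9%) for peaks at 1 to 2 kb and 6.32% (2.35 to 13.2%) for intronic peaks. The median width was 30 bases, and 283 members had a width of exactly 20 bases.

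The control held few reads at the members. The background, the number of reads set against the eIF4A1 reads at the summit, had a median of 0.0176 and a maximum of 4.40. In 47 members it was a whole multiple (within 0.01) of 0.880, the step that 1 control read adds at the summit, and in 1 further member it was above that step. At all other members it was below that step. The 48 members with a control read all had at least 8 eIF4A1 reads. No member had a −log10 q below 1.30, which a summit with a control read and few eIF4A1 reads would not reach. The low background and this minimum therefore follow at least in part from how peaks are called. Internal members and those near a gene's 5' end had the same median fold, 3.99. A fold of at least 5 was reached by 25.1% (interval 21.3 to 29.3%) of the internal and 18.7% (14.1 to 24.1%) of the 5' group, and at least 5 reads were found in 29.3% (interval 25.3 to 33.6%) of the internal and 24.3% (19.1 to 30.1%) of the 5' group. Upstream of the chosen start lay 30.6% of the internal members (26.5 to 35.0%) and 20.3% (15.5 to 25.8%) of the 5' group.

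**Figure D3:**
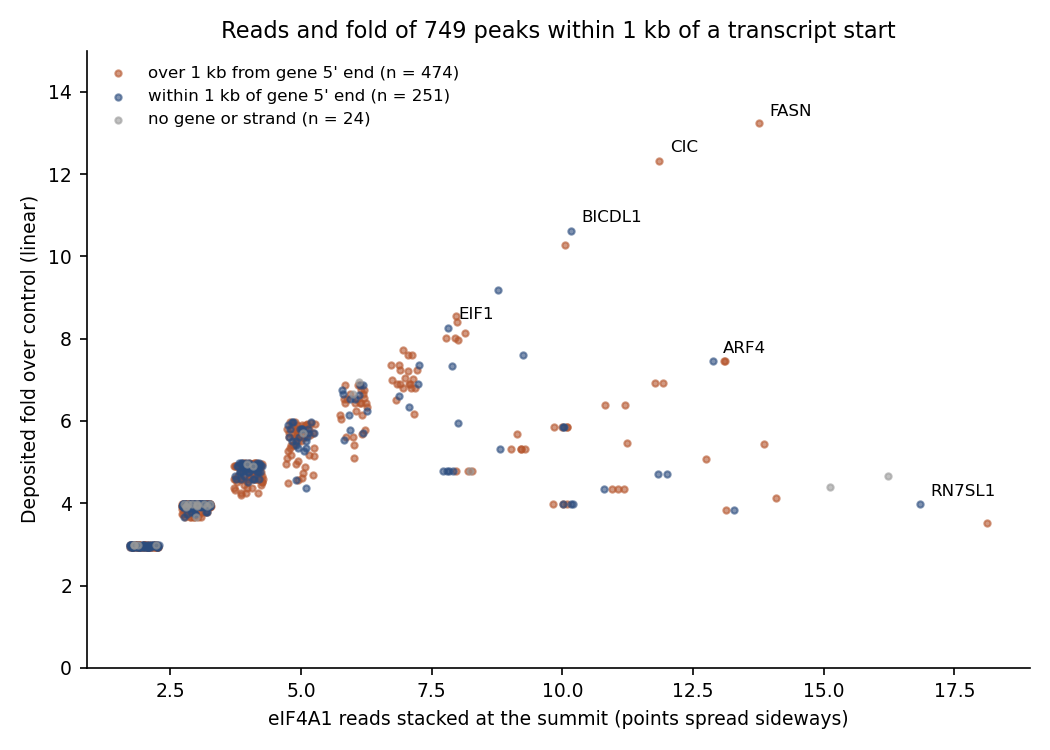
Reads at the summit (horizontal axis, points spread sideways) and deposited fold over control (vertical axis, linear) for the 749 members, coloured by distance from the gene's 5' end. Along the upper edge the background was low, and RN7SL1 lies far below that edge, with 17 reads and a fold of 3.98.

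The strongest members by fold were mostly internal. FASN, the gene of fatty acid synthase, had 14 eIF4A1 reads over a background of 0.132, a fold of 13.3, at a summit 17794 bases into a gene of 19899. CIC, encoding the transcriptional repressor capicua, had 12 reads over 0.0545, a fold of 12.3, at 790 bases from the gene's 3' end; its chosen transcript is 546 bases long. FBRSL1 had 10 reads and a fold of 10.3 at 81298 bases from its 5' end. BICDL1, which encodes an adaptor of the dynein motor, was the exception among these 4. Its 10 reads over 0.0352 (fold 10.6, chr12:119989584-119989623) lay 378 bases from the 5' end of a gene of 105260 bases.

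Among the other members of highest fold, EIF1, ARF4 and HSPA5 lay near a gene's 5' end. EIF1 encodes the initiation factor that guards start-codon choice. It had 8 reads over 0.0880, a fold of 8.27, with the summit 159 bases from the 5' end (chr17:41688949-41689059). ARF4, encoding a small GTPase of Golgi transport, had 13 reads over 0.880, a fold of 7.45, at 192 bases. HSPA5, the endoplasmic reticulum chaperone BiP, had 9 reads over 0.317, a fold of 7.59, at 629 bases. SRGAP2, which encodes a GTPase-activating protein, had 7 reads and a fold of 7.60 at 2018 bases. The ARF4 and SRGAP2 summits each lie in overlapping RefSeq genes.

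Internal members of this group included ARRDC1 (fold 8.41), DLGAP4 (8.14), PRKCSH (8.01), SLC39A7 (8.01), LTBP3 (7.73), MVD (7.60) and FBRS (7.45). PRKCSH encodes the beta subunit of glucosidase II, which trims glycans on new proteins in the endoplasmic reticulum. SLC39A7 encodes a zinc transporter of that compartment, and LTBP3 a protein that binds latent TGF-beta. Each rested on 7 or 8 reads, except FBRS with 13. A difference of 1 read between such peaks is within counting error, so their order by fold is not resolved.

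Among the 13 members with most reads, 4 were also among the 20 of highest fold: the leading FASN peak, another FASN peak, ARF4 and FBRS. The others had more background. A further FASN peak had 18 reads over a background of 4.40, a fold of 3.52. RN7SL1, the RNA of the signal recognition particle, had 17 reads over 3.52, a fold of 3.98, at base 94 of 299 (chr14:49586668-49586727). AKR1B1, encoding aldose reductase, had 14 reads over 2.64, and RAD23B, a gene of nucleotide excision repair, 13 reads over 1.76. The peak listed under AMDHD2, with 13 reads over 2.64, lies in ATP6V0C, which encodes a subunit of the vacuolar proton pump. At these 5 peaks the background was 1.76 to 4.40, and the fold was 3.52 to 5.07.

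U1 small nuclear RNA showed a repeated position. The 4 members listed under RNVU1-18 had 16, 15, 14 and 13 reads, with folds of 4.67, 4.40, 5.44 and 3.85. Their summits lie at 128, 129, 126 and 125 bases from the start of a U1 transcript of 164 bases. Only 1 of them is in RNVU1-18 itself. The others are in RNU1-4, RNU1-3 and the long noncoding RNA LOC105370449. The LOC105370449 summit lies in overlapping RefSeq genes, so that assignment is not unique. U1 copies are near-identical, so the assignment of reads among them is uncertain and the 4 peaks are not independent. RN7SL3, a copy of the 7SL RNA, had 10 reads, and RNU4-1, a U4 RNA, had 3.

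By gene, the 749 members were assigned to 664 genes: 609 protein-coding, 28 long noncoding, 10 pseudogenes, 10 microRNA genes and 7 other small RNA genes. Of these, 603 genes had 1 member, 50 had 2 and 11 had 3 or more. In 93 genes (14.0%) there was also a peak of another class, most often at 1 to 2 kb (31 genes) or in an exon (30 genes). Of the members, 680 (90.8%) lay inside the named gene, 57 only in another gene and 12 in none. Of all members, 11.6% (87 peaks) lay in overlapping genes, which cannot be told apart without strand.

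Peaks of the genes with most members ran along the gene body and did not gather at its 5' end. FASN had 11 members among 23 peaks in all classes, from 2838 to 19811 bases into the gene, with folds of 3.52 to 13.3. PITPNM1, encoding a phosphatidylinositol transfer protein, was listed with 6, of which 5 lie inside it and 1 in CDK2AP2. BCAM, a laminin receptor gene, had 4, with 6, 9, 5 and 11 reads and folds of 6.43, 5.69, 5.61 and 5.46. NFKBIA, which encodes the NF-kappaB inhibitor, had 3 at 214, 1549 and 2213 bases, with 5, 10 and 5 reads. The remaining genes with 3 members were ARRDC1, EHBP1L1, DDR1 (a collagen receptor kinase), EPAS1 (the hypoxia factor HIF-2 alpha), HDAC5 (a histone deacetylase) and TMEM208. In these 6 genes the best fold ran from 4.93 at TMEM208 to 8.41 at ARRDC1. Members in 1 gene may come from the same RNA molecules and are not separate evidence for it.

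**Figure D4:**
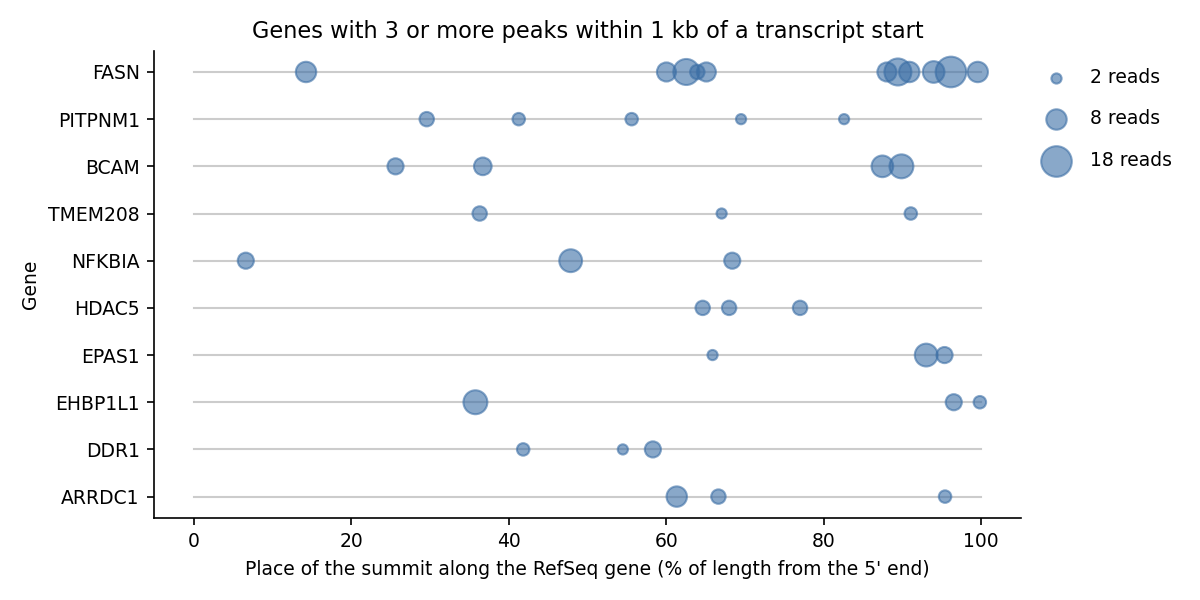
Place of each member along its RefSeq gene, as a percent of the gene's length from the 5' end, for 10 genes with 3 or more members; circle area is proportional to reads at the summit. RNVU1-18 and the PITPNM1 peak in CDK2AP2 are left out. NFKBIA has the circle closest to a 5' end, at 214 bases.

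Among members with at least 5 reads, those closest to a gene's 5' end were a mixed group. LOC101927178, a long noncoding RNA, had 7 reads over 0.211 at base 80 (fold 6.61), in overlapping genes. STRAP, encoding a component of the SMN complex, had 10 reads over 1.76 at base 139 (fold 3.99). GRB2, the adaptor of receptor tyrosine kinases, had 6 reads over 0.0528 at base 147 (fold 6.65). PAIP2B, whose product restrains poly(A)-binding protein in translation, had 5 reads at base 154, and UQCR10, a subunit gene of respiratory complex III, had 5 at base 162. Both had a fold of 5.80. The peak listed under PRR15 (5.90) lies in the divergent transcript PRR15-DT, 153 bases from its start. RN7SL1, RNVU1-18 and EIF1, given before, were also in this group.

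Some peaks carried the name of a gene that does not hold their summit. All 10 members named after a microRNA gene missed the RefSeq hairpin, and 9 of them lay in another gene. Examples are the peak listed under MIR3620, which lies in ARF1 (10 reads, fold 5.85), and that listed under MIR1909, which lies in REXO1 (8 reads, fold 4.79). The peak listed under SNORD35A, a small nucleolar RNA gene, lies in RPL13A, a ribosomal protein gene (5 reads, 4.50). The 12 members outside every RefSeq gene had up to 6 reads, at COPS7A (fold 6.95, −324 bases from the chosen start) and MED13 (fold 6.65, −487 bases).

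Gene lists were compared with the share of all protein-coding genes that had a member, which was 3.04% (609 of 20052). The lists were written with earlier results of these data known and are no independent evidence, and genes differ in length and expression, which was not adjusted for. In the fatty acid and sterol synthesis list 10 of 40 genes had a member (25.0%, interval 12.7 to 41.2%; median of the best fold per gene 4.79, against 3.99 over all 664 genes). MVD, which makes isopentenyl diphosphate, had 7 reads over 0.0528 (fold 7.60). SQLE, squalene epoxidase, had 5 reads over 0.141 (5.26). DHCR7, of the last steps of cholesterol synthesis, had 4 reads (4.83). SCD, the stearoyl-CoA desaturase, had 2 members within 1 kb of its 5' end, with 4 and 12 reads (folds 4.75 and 4.71). Only 3 of the 10 genes, SCD, SQLE and CYP51A1, had a member that close to the 5' end. At a −log10 q of at least 5 the count was 3 of 40, and with at least 5 reads 5 of 40. Over all genes with a member, 664 became 212 and 178 at these settings. The share of 3.04% therefore does not apply to counts at stricter settings, here or for the other lists. A fall in such a count is no loss particular to a list. Of 7 SREBP pathway regulators, SCAP had a member (2.99, 2 reads). The interval of that share (14.3%, 0.361 to 57.9%) includes the 3.04% of all protein-coding genes.

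Of 45 initiation and elongation factors, 6 were listed (13.3%, interval 5.05 to 26.8%). They were EIF1 (8.27), EIF4A3, a helicase paralog that marks exon junctions (5.77, 5 reads), EEF2, the translocase of elongation (5.41, 6 reads), EIF3B (5.03, 5 reads), DDX3X, another DEAD-box helicase of initiation (4.67, 4 reads), and EEF1D (3.91, 3 reads). The EEF1D summit lies outside the gene. Of these, EIF1 and DDX3X had the summit within 1 kb of the gene's 5' end. EIF4A1 itself had no member. At a −log10 q of at least 5 the count was 2. Of 79 cytosolic ribosomal protein genes, 2 had a member (2.53%, interval 0.308 to 8.85%): RPL23A (4.60) and RPS4X (4.25), on 4 reads each, and with at least 5 reads there were 0. Assigned by the RefSeq gene that holds the summit, the counts were 5 of 45 (11.1%, interval 3.71 to 24.1%) and 3 of 79.

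Of 24 immediate early genes, which respond to growth signals without new protein synthesis, 4 were listed (16.7%, interval 4.74 to 37.4%). ZFP36, a destabiliser of AU-rich mRNAs, had 6 reads over 0.141 (6.14), KLF6 6 reads over 0.211 (5.78), and JUND 3 reads (3.79). The DUSP5 peak (2.98, 2 reads) lies outside the gene. At a −log10 q of at least 5 there were 0. Assigned by the RefSeq gene that holds the summit there were 3 (12.5%, interval 2.66 to 32.4%), beside 2.98% of all protein-coding genes, which that interval includes. Among 32 microtubule motors and adaptors BICDL1, CLIP2 (6.51, 7 reads) and KIF3C (5.51, 5 reads) had members. Of 25 endoplasmic reticulum stress genes and chaperones 2 were listed, PRKCSH and HSPA5. Of 20 glycolysis and hypoxia genes 2 were listed, HIF1A, the hypoxia-inducible factor, and PKM, pyruvate kinase, each with 9 reads over 0.880 and a fold of 5.32. The HIF1A summit lies 172 bases from the 5' end, in overlapping genes, and that of PKM 29037 bases from it. Of 35 kinase and cytokine signalling genes 2 were listed, among them PIK3R2 (7.35, 7 reads).

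Markers of cell identity were examined in the same way. Of 26 genes on the epithelial adhesion list 3 had a member (11.5%, interval 2.45 to 30.2%). That interval includes the share over all genes. The members were in BCAM, APLP2 (3.93) and CTNNB1, encoding beta-catenin (2.99, 2 reads). Not every gene on this list is specific to epithelial cells, and APLP2 is not. No member was found in 10 androgen receptor and luminal prostate markers, 16 blood and stromal markers or 27 replication-dependent histone genes, where counts of 0 have upper limits of 30.8%, 20.6% and 12.8%. All 3 limits are above 3.04%, so lists of this size cannot show a share below that of all genes. Peaks over control do not measure how much of an RNA a cell holds, so the lack of a peak is no sign that a gene is silent.

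**Figure D5:**
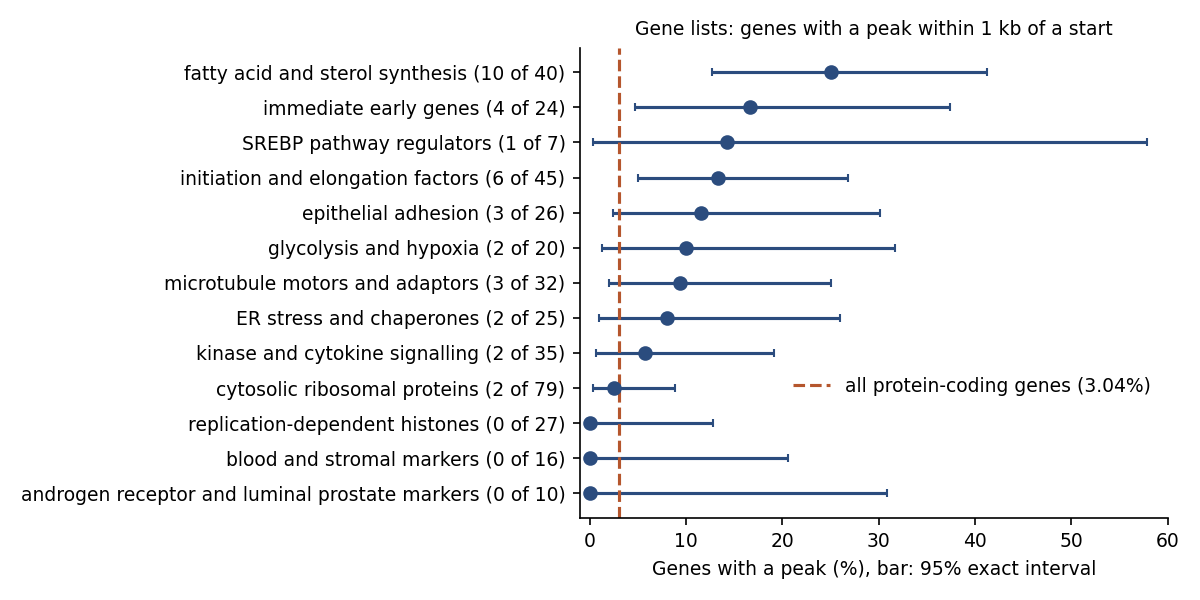
Share in percent of each list's RefSeq genes with a member (points) and the exact 95% interval (bars), with the share over all protein-coding genes, 3.04%, as a dashed line. The intervals of 3 lists lie wholly above the line: fatty acid and sterol synthesis, immediate early genes, and initiation and elongation factors. Assigned by the RefSeq gene that holds the summit, the interval for immediate early genes starts at 2.66% and includes the share over all genes.

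The RefSeq promoter windows (300 bases) of protein-coding genes with a member near the 5' end were also examined. The window nearest each summit was taken, which gave 165 distinct windows. Their median GC share was 66.7% (quartiles 62.0 and 71.3%), against 62.3% (53.0 and 70.0%) over 22198 windows of protein-coding genes, and 67.0% for 343 windows of genes with internal members. Motifs were searched exactly and on both strands. GGCGGCGGC, a GGC repeat, was in 16.4% of the 165 windows (interval 11.1 to 22.9%), 15.7% of the 343 and 9.45% of all. TATAAA, the core of the TATA box, was in 3.64% (1.35 to 7.75%), 3.50% and 9.47% in that order. CTTTCC, a pyrimidine run like those at the 5' end of ribosomal protein mRNAs, was in 21.8%, 24.5% and 26.4%, and AGAGAG, a purine repeat, in 24.2%, 21.9% and 23.5%. The last 2 shares differed from all windows by less than the counting interval. On the gene's strand alone GGCGGCGGC was in 9.09% (5.18 to 14.6%) of the 165 windows, 11.4% (8.21 to 15.2%) of the 343 and 6.08% of all, so the interval of the 165 includes the share of all windows and that of the 343 does not. TATAAA on that strand was in 1.82% (0.377 to 5.22%), 2.33% (1.01 to 4.54%) and 6.48%, and both intervals lie below the share of all windows. Median GC content was higher in both sets than in all windows, and its part in these shares was not tested. Most of each window lies upstream of the gene start and is not part of the RNA.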

How the data were processed

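RNA immunoprecipitates of DU145 cells, 1 with antibody to eIF4A1 and 1 with IgG, formed 1 set (number 2 in both titles). Per the submitters' processing notes, the tools were ChIPseeker, MACS2, BWA, Picard, STAR, Salmon and DESeq2. For versions, roles, the control library, filters and removal of duplicates, no statement was given in the sources used here. Per peak, the deposited track holds a score, the enrichment over control as a linear fold (a ratio), and −log10 p-values and −log10 q-values. The authors' annotated table gives summit, transcript and distance in bases, in 2051 lines for 1919 peaks.

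Reads at each summit were solved from fold, (reads + 1)/(background + 1), and Poisson p. All 1920 peaks of the track came within 0.01 of a whole number, and the calculation was tested on simulated data. The simulated backgrounds did not span those of the members, whose median of 0.0176 lay below the simulated range and maximum of 4.40 above it. Library totals were not used here. Summits were placed in RefSeq genes (GRCh38.p14, 1-based). The notes name hg19 besides hg38, and 98.4% of members fell in a gene on the latter. The text names the 20 members of highest fold, the 10 with most reads, genes with most members, the 10 nearest a gene's 5' end with at least 5 reads, and up to 4 per list for 13 lists. Other genes were picked with their values known. A few genes within this rule are left out of the text. Members and lists were chosen with earlier results of these data known. Alternatives were stricter thresholds, another distance limit, 1 peak per gene, placed chromosomes and assignment by RefSeq gene. Python 3.11.15, pandas 2.3.3 and scipy 1.17.1 were used.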

Additional observations from a re-analysis of the deposited data

Results flagged for a closer look

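A single peak of the track, with a fold of 3.93 on 3 reads, has no line in the annotated table, so its class is unknown and it could not be counted. It stands above control in data that the comparisons did not use.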

How the results depend on the processing

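The counts follow how strictly a peak is defined. Of 749 members, 223 passed a −log10 q of 5, 169 a fold of 5 and 206 a minimum of 5 reads. From 664 genes the counts were 212, 150 and 178. The median fold, 3.99, was 4.95, 5.94 and 5.80 under these settings. The share of all peaks, 39.0%, was 44.2% at the stricter q and 31.0% with a limit of 500 bases to the start. The share within 1 kb of the RefSeq 5' end, 34.6%, was 28.3% with the fold setting, 30.5% with the read setting, 38.6% with 500 bases, 45.2% with a 3 kb limit and 39.3% from any start of the promoter table. The share downstream of the start, 71.7%, was 68.2% at the stricter q and 68.0% with the fold setting. The 35 listed genes became 11 at the stricter q and 20 with the read setting. By construction, the stricter settings hold fewer peaks. Of 91 alternatives 54 stayed within 1.5 times a count or inside the 95% interval of a share or median. Counting 1 peak per gene, and leaving out FASN, were among these for the 6 results recomputed that way. The promoter-table start and the omission of FASN were chosen after seeing the data. No paired analysis was possible because there was a single library for each antibody, and no replicate could be left out.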
